A study of Rattus norvegicus with 20 samples.

Results

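The genes described here are 10 members of the endoplasmic reticulum (ER) stress response and the integrated stress response: Hspa5, Pdia4, Ddit3, Atf3, Atf4, Trib3, Asns, Sesn2, Aldh1l2 and Xbp1. They were chosen by name, and a probe was taken for a gene when its RefSeq accession, or else its symbol or a synonym, matched that gene. Of the 10 genes, 9 had a probe, among 30495 genes tested, and each of the 9 had 1 probe and 1 spot on every array and passed the filter on dim probes. Xbp1 was not analysed here.

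Proteins that misfold in the ER are sensed by IRE1, PERK and ATF6, which raise the output of ER chaperones and of the enzymes that fold or degrade secretory proteins. PERK is also a kinase of the initiation factor eIF2, and with the related kinases GCN2, PKR and HRI it feeds the integrated stress response, in which general translation falls while the transcription factor ATF4 is made. ATF4 drives genes for amino acid supply and, with CHOP and ATF3, genes that limit or end the response. In heart muscle cells these pathways are known to respond to ischaemia, nutrient shortage and drugs.

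RNA came from primary cultures of heart tissue from neonatal rats, labelled as cardiomyocytes, that had grown for a day before treatment. There were 2 arrays of untreated cultures, although the series text also gives 3 replicates for each group. The other 18 arrays came from cultures exposed to the anti-inflammatory drug diclofenac, which inhibits cyclooxygenases, with 3 arrays for each pairing of a time (6 h or 24 h) and a reference concentration, written 1, 1/5 and 1/25. What concentration 1 is in molar terms is not given, and neither is a time for the untreated cultures. In comparisons with them the drug and the length of culture therefore cannot be told apart. Between 24 h and 6 h this limit holds as well, because no untreated cultures are labelled with either time. Nothing in the labels says that replicates were separate cultures or litters, so each p-value speaks for the spread among these arrays alone, which may be technical. In bulk RNA fewer cells of a type and less RNA per cell cannot be told apart.

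All levels below are log2 processed signals relative to the array's own 75th percentile, a scale on which probes of different genes cannot be set against each other. Of an array's spots, between 64.1% and 88.2% were well above background (median over 20 arrays 83.7%). The share was under 80% on 4 arrays: the second of 1/25 for 6 h, the first and the third of 1/5 for 24 h, and the first of 1/25 for 24 h. It averaged 84.0% on the 9 arrays of 6 h and 79.3% on the 9 arrays of 24 h. The 75th percentile itself differed 6.93-fold between the highest and the lowest array. Arrays of 6 h and 24 h at the same concentration never shared a slide, and at concentrations 1 and 1/5 they were scanned on different days, so for these time and scan day cannot be told apart. Both untreated arrays shared a slide and a scan day. All arrays of 24 h and of 1/25 for 6 h were on other slides and scanned on other days. In their comparisons with untreated, treatment and scan day cannot be told apart. The same holds for concentration where 1/25 is set against 1 or 1/5 at 6 h. At 24 h the arrays of concentration 1 shared no slide with those of 1/5 or 1/25, so there concentration and slide cannot be told apart.

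Markers of the labelled cell type were present: all 10 cardiomyocyte genes were well above background on every array. So were 5 of 8 fibroblast, 1 of 3 smooth muscle, 2 of 5 endothelial, 3 of 4 leukocyte, 2 of 3 erythroid and 3 of 5 epithelial and mesothelial genes. The summed cardiomyocyte level lay between 3.80 and 4.24 on the 6 h arrays and between 3.46 and 6.30 on the 24 h arrays. For the other lists the 6 h and 24 h ranges were 3.75 to 4.12 and 3.46 to 6.37 for fibroblasts, 1.60 to 2.15 and -0.94 to 2.00 for smooth muscle, and 0.81 to 1.94 and 1.33 to 3.36 for endothelium. They were 1.28 to 2.07 and 0.60 to 1.93 for leukocytes, -0.51 to 0.19 and -1.41 to 0.45 for erythroid cells, and 0.17 to 0.67 and 0.08 to 1.09 for epithelium and mesothelium. Between 24 h and 6 h, in the mean of the concentrations, 21.1% of all genes were called. Of the markers, 2 of 10 cardiomyocyte and 2 of 3 smooth muscle genes were called lower. Of endothelial and leukocyte genes, 2 of 5 and 2 of 4 were called higher. Of the fibroblast genes 1 was called higher and 1 lower, and 2 epithelial and mesothelial genes and 1 erythroid gene were called lower. The spots of Col1a1 and Col1a2 (fibroblast) were saturated on all 20 arrays and that of Tnnt2 (cardiomyocyte) on 15, so that those sums hold ceiling values divided by the array's percentile. The part of cell composition in the results below was not tested.

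The probes of Sesn2 and Aldh1l2, which were lower at 24 h, and that of Ddit3 are shown because each result is the signal of a single 60-base stretch. Positions are those of the array files, on rat build rn3, and strands follow the order of the coordinates given there. For Sesn2 that strand is plus, whereas its RefSeq promoter entry on build GRCr8 is on the minus strand. The reason was not examined.
Sesn2 probe, chr5:152665930-152665989, plus strand: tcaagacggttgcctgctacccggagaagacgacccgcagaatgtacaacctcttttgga
Aldh1l2 probe, chr7:22466378-22466437, plus strand: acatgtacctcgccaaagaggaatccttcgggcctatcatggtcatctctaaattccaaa
Ddit3 probe, chr7:67272405-67272766, plus strand: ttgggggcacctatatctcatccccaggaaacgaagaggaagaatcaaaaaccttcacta
The genomic interval of the Ddit3 probe (362 bases) is longer than the 60 bases of the probe, whereas those of Sesn2 and Aldh1l2 are not. The files give the Sesn2 probe under an older predicted name with a description of similarity to sestrin 2, and the Aldh1l2 probe as a predicted gene. Their GC content was 45% for Aldh1l2 and Ddit3 and 53.3% for Sesn2. The files place further probes at chr3:13684111-13684170 (Hspa5), chr13:107380795-107380853 (Atf3), chr7:118573070-118573129 (Atf4), chr3:142569637-142569696 (Trib3) and chr4:32877676-32877735 (Asns), and they do not annotate exons or UTRs.

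Promoters are shown for the chaperone gene Hspa5 and the folding enzyme gene Pdia4, which moved in opposite directions, and for Trib3, whose window holds the CEBP-ATF response element. Each line gives the 100 bases before the start site, from RefSeq on build GRCr8, with the ER stress element or the CEBP-ATF element in capitals.
Hspa5 promoter, chr3:38452916-38453015, plus strand: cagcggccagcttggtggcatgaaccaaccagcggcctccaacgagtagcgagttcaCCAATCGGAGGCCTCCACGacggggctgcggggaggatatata
Pdia4 promoter, chr4:78153192-78153291, minus strand: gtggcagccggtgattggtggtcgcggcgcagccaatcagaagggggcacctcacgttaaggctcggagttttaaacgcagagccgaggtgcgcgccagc
Trib3 promoter, chr3:161275534-161275633, minus strand: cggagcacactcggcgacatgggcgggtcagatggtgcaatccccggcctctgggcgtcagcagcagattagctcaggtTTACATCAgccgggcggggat
The ER stress element, a site of ATF6 with NF-Y, was searched as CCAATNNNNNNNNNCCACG and the CEBP-ATF response element, a site of ATF4 with a CEBP partner, as TGATGNAA. The core of the cyclic AMP response element was searched as TGACGT, and each of the 3 on both strands of the 250 bases before the start. Of the 10 members 8 had a promoter entry, all but Atf3 and Aldh1l2. The ER stress element was found in Hspa5, from base -43 to -25, and in Xbp1, against 22 of 33469 promoters (0.0657%). The CEBP-ATF element was found in Trib3, on the minus strand from -21 to -14, against 1139 promoters (3.40%). The cyclic AMP response element core was found in Hspa5, outside the 100 bases shown, against 2325 promoters (6.95%). These are letters in a window, and where they were not found nothing follows about the factor.

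Against untreated cultures, none of the 9 measured genes was called at any concentration or time (limma, adjusted p under 0.05 over all genes). The means farthest from untreated were those of Pdia4 and Aldh1l2, on the lower side, and, with saturated Atf4 left aside, of Hspa5 and Asns, on the higher side, in the groups of 1/5 or 1/25 for 24 h. The smallest adjusted p of any member was 0.118, for Aldh1l2. Over all genes the shares called were 0.00656% at concentration 1 for 6 h, 0% at 1/5 for 6 h and 0% at 1/25 for 6 h. At 24 h they were 0.00328% at concentration 1, 0.184% at 1/5 and 0.00328% at 1/25. At an unadjusted p under 0.05, 0 members passed in the 6 h groups and at concentration 1 for 24 h, against 6 of 9 (saturated Atf4 among them) at 1/5 for 24 h and 4 of 9 at 1/25 for 24 h. Of all genes, 30.4% and 13.4% passed that threshold in the last 2 comparisons. With only 2 untreated arrays, groups often lay wholly above or below them. At 1/5 for 24 h 20.7% of all genes lay wholly above and 19.4% wholly below. The shares were 20% and 20.3% at 1/25 for 24 h and 14.1% and 17.7% at concentration 1 for 24 h. For 6 h at concentration 1 they were 14.1% and 11.6%. How many of all genes lay below both untreated arrays on all 9 of the 24 h arrays was not counted.

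**Figure D1:**
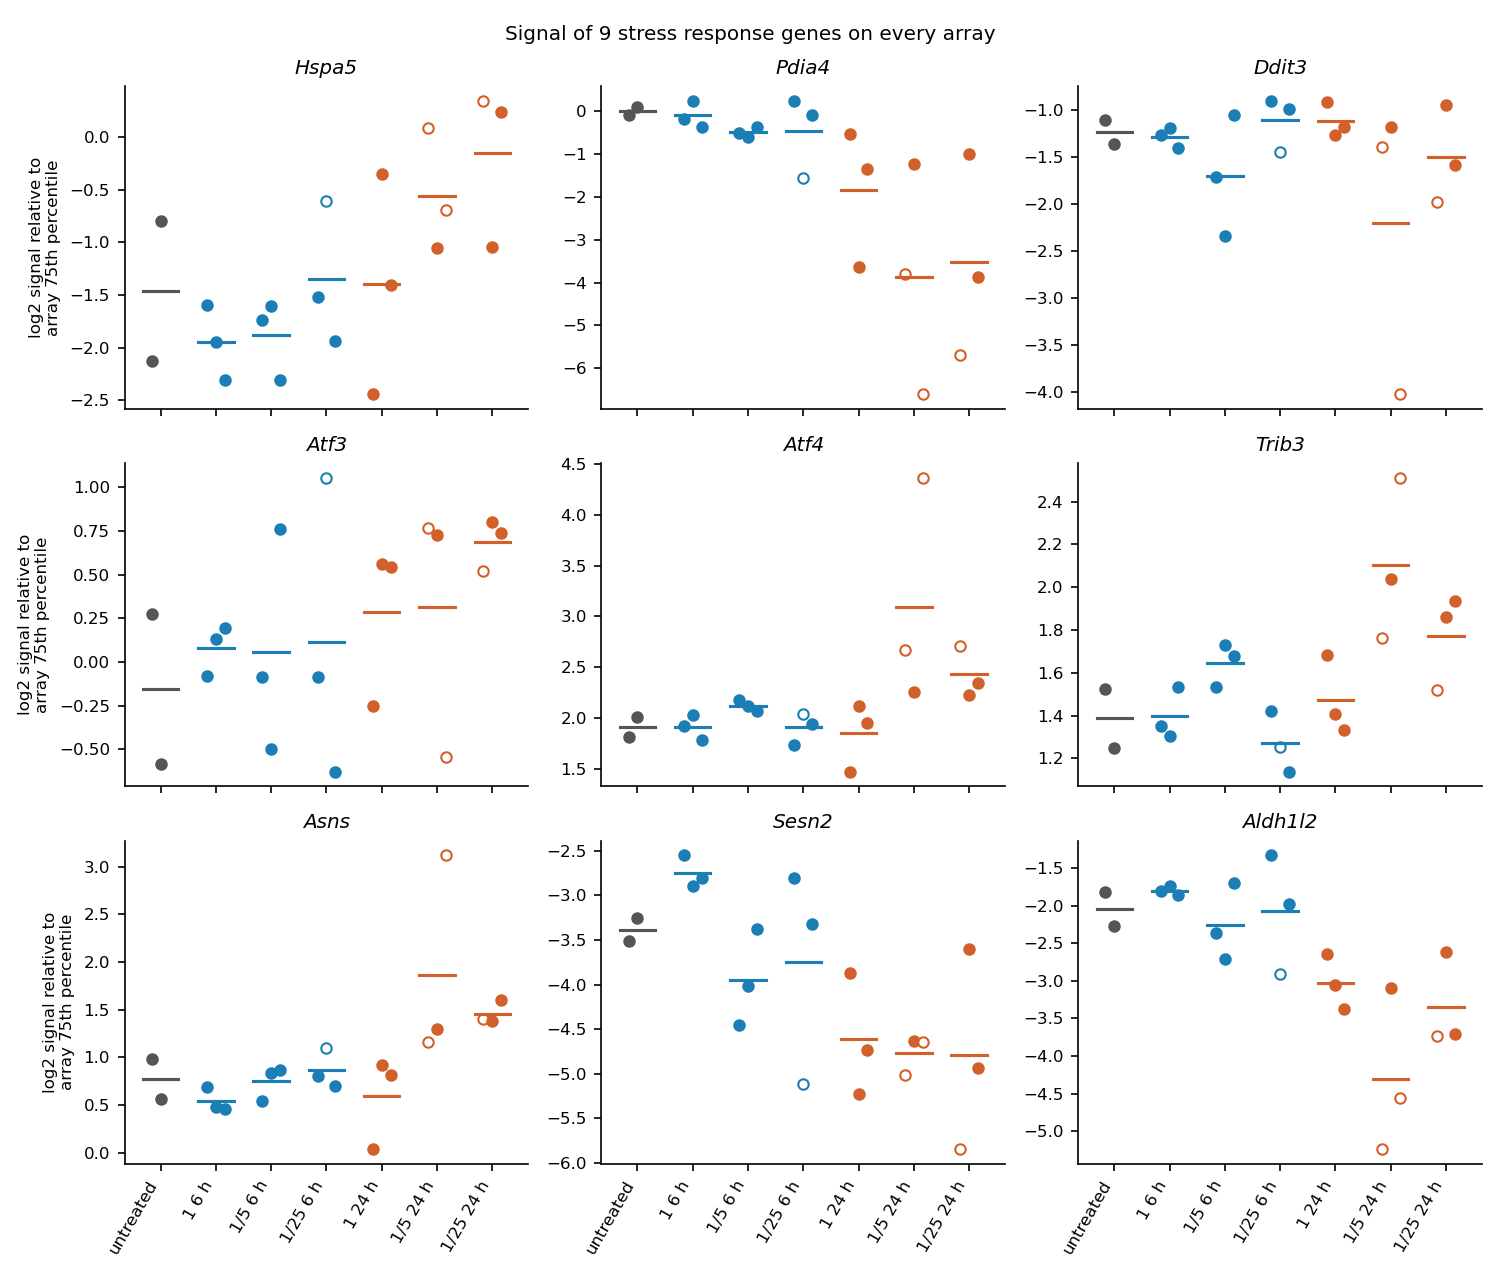
Log2 signal relative to the array's 75th percentile (vertical axis) of 9 genes on each of 20 arrays, by group (horizontal axis: reference concentration of diclofenac, then hours). Points are arrays, bars are group means, and open points are the 4 arrays with under 80% of spots above background; Pdia4, Sesn2 and Aldh1l2 lie lower in the 24 h groups and Hspa5 higher, with overlap between times.

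The plot of every array shows the chaperone and folding genes first. Hspa5 encodes BiP, the most abundant ER chaperone and the classical readout of ER stress. It stood at -2.13 and -0.80 on the untreated arrays, and the 2 controls lay farther apart than any treated group's mean lay from theirs. At 6 h its arrays were at -1.60, -1.94 and -2.31 at concentration 1, at -1.74, -1.61 and -2.31 at 1/5, and at -1.52, -0.60 and -1.94 at 1/25. At 24 h they were at -2.45, -0.35 and -1.40 at concentration 1, at 0.08, -1.06 and -0.69 at 1/5, and at 0.35, -1.05 and 0.24 at 1/25. Every 24 h group overlapped the untreated arrays, the last of them through the array at -1.05. The change against untreated was 1.31 ± 0.61 (SE) at 1/25 for 24 h (adjusted p = 0.373, limma) and 0.06 ± 0.61 at concentration 1 for 24 h.

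Pdia4 encodes a protein disulfide isomerase (ERp72) that forms and rearranges disulfide bonds in the ER and, like Hspa5, is a textbook target of the unfolded protein response. Untreated arrays lay at -0.09 and 0.10. The 6 h arrays were at -0.18, 0.23 and -0.36 at concentration 1, -0.51, -0.61 and -0.37 at 1/5, and 0.24, -1.57 and -0.09 at 1/25. The 24 h arrays spread from -0.55 down to -6.61: -0.55, -3.65 and -1.35 at concentration 1, -3.79, -1.23 and -6.61 at 1/5, and -5.68, -1.01 and -3.87 at 1/25. All 9 of the 24 h arrays lay below both untreated arrays, while 4 of them lay above the 6 h array at -1.57. The changes against untreated were -1.85 ± 1.30, -3.88 ± 1.30 and -3.52 ± 1.30 at 1, 1/5 and 1/25 for 24 h (adjusted p = 0.999, 0.128 and 0.350, limma). At 1/5 the change was -2.51 without the third array and -1.23 without the 4 arrays of low share. Its residual spread was larger than that of 98.1% of genes, and 2 of the low arrays, the third of 1/5 and the first of 1/25, were not well above background.

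Atf4 encodes the central transcription factor of the integrated stress response, whose protein is regulated mainly at translation. Its probe was saturated on 19 of 20 arrays, so its scaled level was a ceiling and no fold can be given between any of the groups. Its scaled level ran from 1.47 on an array of concentration 1 for 24 h to 4.37 on the array of 1/5 for 24 h with 64.1% of spots above background. Over the 20 arrays this level had a correlation of -0.99 with the log2 of the array's 75th percentile, the value it is divided by.

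The other transcription factors were measured below saturation. Ddit3 encodes CHOP, a factor linked to cell death under lasting ER stress. Its levels were -1.10 and -1.36 untreated, from -2.34 to -0.90 on the 6 h arrays and from -4.02 to -0.91 on the 24 h arrays. The group mean farthest from untreated was that of 1/5 for 24 h, at -0.97 ± 0.63 against untreated (adjusted p = 0.286, limma). That mean rested on the third array, at -4.02 beside -1.39 and -1.18, which is the array with 64.1% of spots above background. Without it the change was -0.05.

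Atf3 encodes an ATF/CREB family repressor that is quickly induced by many stresses. Its levels were 0.28 and -0.58 untreated, from -0.63 to 1.05 at 6 h and from -0.54 to 0.80 at 24 h. Its 3 arrays of 1/25 for 24 h, at 0.52, 0.80 and 0.74, all lay above both untreated arrays, but the change of 0.84 ± 0.52 was not called (adjusted p = 0.445, limma). Of the 9 genes it had the smallest F statistic over the 7 groups (0.584, adjusted p = 0.805).

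Trib3 encodes a pseudokinase that is induced by ATF4 and CHOP and restrains both ATF4 activity and AKT signalling. It was the steadiest of the set, with a residual spread larger than that of only 1.22% of genes. Its spot was saturated on 1 array of concentration 1 for 24 h. Untreated arrays stood at 1.52 and 1.25, and the 3 arrays of 1/5 for 24 h, at 1.76, 2.04 and 2.51, lay above both. The change there was 0.72 ± 0.29 (adjusted p = 0.132, limma), and at concentration 1 it was 0.01 ± 0.29 at 6 h and 0.09 ± 0.29 at 24 h.

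Asns encodes asparagine synthetase, a direct ATF4 target of amino acid supply. Untreated arrays stood at 0.98 and 0.56, those of concentration 1 for 24 h at 0.04, 0.92 and 0.82, those of 1/5 at 1.16, 1.29 and 3.12, and those of 1/25 at 1.40, 1.38 and 1.60. Both lower concentrations at 24 h lay wholly above the untreated arrays, whereas concentration 1 overlapped them. Of all genes 20.7% lay wholly above at 1/5 and 20% at 1/25. The changes against untreated were -0.18 ± 0.46, 1.09 ± 0.46 and 0.69 ± 0.46 in that order (adjusted p = 0.999, 0.137 and 0.476, limma). The array at 3.12 was again the one with 64.1% of spots above background, and without it the change at 1/5 was 0.46.

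Sesn2 encodes sestrin 2, a leucine-sensing inhibitor of mTORC1 that is induced by ATF4, NRF2 and p53. Its untreated levels were -3.52 and -3.25. At 6 h it read -2.55, -2.90 and -2.81 at concentration 1, -4.45, -4.02 and -3.38 at 1/5, and -2.81, -5.11 and -3.32 at 1/25. At 24 h it read -3.87, -5.23 and -4.73 at concentration 1, -5.02, -4.63 and -4.65 at 1/5, and -5.84, -3.60 and -4.93 at 1/25. Concentration 1 for 6 h lay above both untreated arrays (0.63 ± 0.64, not called), and all 9 of the 24 h arrays lay below them. The changes at 24 h were -1.22 ± 0.64, -1.38 ± 0.64 and -1.41 ± 0.64 at 1, 1/5 and 1/25 (adjusted p = 0.999, 0.159 and 0.367, limma), and 2 of the 9 arrays were not well above background for this probe.

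Aldh1l2 encodes the mitochondrial 10-formyltetrahydrofolate dehydrogenase, an enzyme of one-carbon metabolism that is used as an ATF4 readout of mitochondrial stress. Its untreated levels were -1.83 and -2.28. The 6 h arrays stood around them, at -1.81, -1.74 and -1.86 at concentration 1, -2.37, -2.71 and -1.70 at 1/5, and -1.33, -2.91 and -1.98 at 1/25. The 24 h arrays stood lower, at -2.65, -3.05 and -3.37 at concentration 1, -5.24, -3.10 and -4.56 at 1/5, and -3.74, -2.61 and -3.71 at 1/25. All 9 lay below both untreated arrays. The changes were -0.97 ± 0.57, -2.25 ± 0.57 and -1.30 ± 0.57 (adjusted p = 0.999, 0.118 and 0.365, limma).

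Between 24 h and 6 h, averaged over the 3 concentrations, 4 of the 9 measured genes were called: Aldh1l2, Pdia4 and Sesn2 were lower at 24 h and Hspa5 was higher. Over all genes 21.1% were called in this comparison, 6422 of 30492, with 2348 higher and 4074 lower. Aldh1l2 fell by 1.51 ± 0.29 (SE, 9 against 9 arrays, limma adjusted p = 0.00575), Pdia4 by 2.72 ± 0.67 (adjusted p = 0.0160) and Sesn2 by 1.24 ± 0.33 (adjusted p = 0.0214). Hspa5 rose by 1.03 ± 0.32 (adjusted p = 0.0342). The median change of the 9 genes was 0.34 and that of all genes -0.09. Saturated Atf4, which has no fold, was counted among the 9, so this median rests in part on a ceiling value.

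The arrays of the 2 times overlapped for each of these genes. Of all genes, 0.33% had every 24 h array above every 6 h array and 0.261% had every one below. The share of all genes with the looser patterns that follow was not counted. All 9 of the 24 h arrays lay below the 6 h median for Aldh1l2, Pdia4 and Sesn2, and 7, 5 and 2 of them, respectively, lay below every 6 h array. For Hspa5, 8 of 9 lay above the 6 h median, 4 lay above every 6 h array and 1 lay below every 6 h array. Left out one at a time, no array ended the call of Aldh1l2 or Pdia4. The call of Sesn2 was lost without the second array of concentration 1 for 24 h (adjusted p = 0.0535, limma) or the first of 1/25 for 6 h (adjusted p = 0.0522). That of Hspa5 was lost in 11 of the 20 omissions, at an adjusted p of up to 0.0802.

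**Figure D2:**
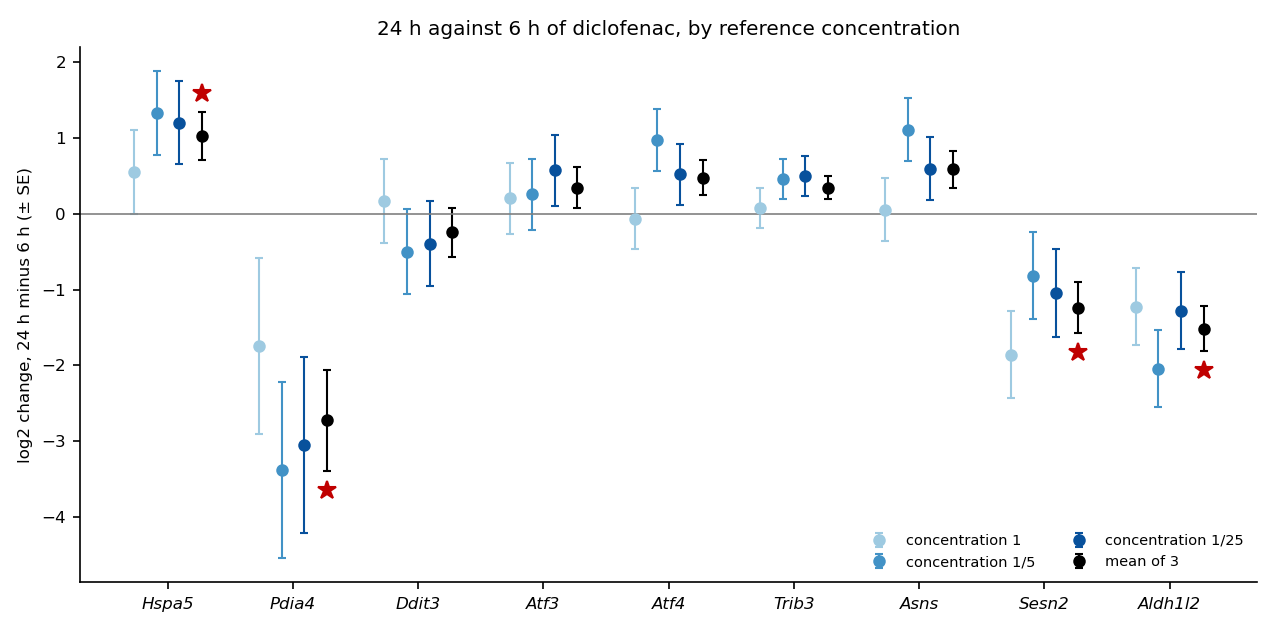
Log2 change between 24 h and 6 h of diclofenac (vertical axis, with its SE from limma) for 9 genes at each reference concentration and as the mean of 3. Stars mark changes with an adjusted p under 0.05: the means of Hspa5 (1.03), Pdia4 (-2.72), Sesn2 (-1.24) and Aldh1l2 (-1.51), and no change at a single concentration.

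The remaining 5 genes were not called in the mean of the concentrations. Asns stood at 0.59 ± 0.24 (adjusted p = 0.0825, limma), Trib3 at 0.35 ± 0.15 (adjusted p = 0.101) and Atf3 at 0.34 ± 0.27 (adjusted p = 0.326). Ddit3 stood at -0.24 ± 0.32 (adjusted p = 0.581), and the sign of this value turned under quantile normalization, under the authors' scaling, with the share of spots above background as a covariate, without the 4 arrays of low share and without the third array of 1/5 for 24 h. Atf4 was saturated in both sets of arrays and has no fold.

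At a single concentration none of the 9 genes was called between 24 h and 6 h, and the plot of changes by concentration shows the same signs at all 3 for the 4 genes called in the mean. Aldh1l2 stood at -1.22 ± 0.51, -2.04 ± 0.51 and -1.28 ± 0.51 at 1, 1/5 and 1/25, the second with an adjusted p of 0.0862 (limma). Pdia4 stood at -1.74 ± 1.16, -3.38 ± 1.16 and -3.05 ± 1.16. Sesn2 was farthest at concentration 1, at -1.86 ± 0.58 (adjusted p = 0.185), and Hspa5 at 1/5, at 1.33 ± 0.55 (adjusted p = 0.119). Over all genes 0.233% were called at concentration 1, 0.0984% at 1/5 and 0% at 1/25. The members with an unadjusted p under 0.05 numbered 2, 5 and 3, against 13.8%, 33.0% and 9.91% of all genes. Whether the change with time differed between concentrations was not tested.

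Several of these levels moved with the quality of the array. Within groups, the level of Pdia4 had a correlation of 0.85 with the share of spots above background, and that of Ddit3 0.83. The values were 0.54 for Sesn2, 0.53 for Aldh1l2, -0.40 for Hspa5, -0.67 for Asns and -0.79 for Atf4. For Trib3 and Atf3 they were -0.23 and 0.17. These are descriptions over 20 arrays that share slides and the same scaling, and the part of array quality in the results was examined only as follows.

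With the share of spots above background as a covariate in the fit, 1 of the 9 genes was called in the mean of the concentrations: Aldh1l2, at -1.20 (limma adjusted p = 0.0359). Pdia4 was then at -1.47 (adjusted p = 0.0730), Sesn2 at -0.87 (adjusted p = 0.148) and Hspa5 at 0.76 (adjusted p = 0.207), and 3.31% of all genes were called. Without the 4 arrays of low share 3 of the 9 were called, beside 15% of all genes. They were Aldh1l2 at -1.19 (limma adjusted p = 0.00987), Sesn2 at -1.25 (adjusted p = 0.0172) and Pdia4 at -1.66 (adjusted p = 0.0496). Hspa5 stood at 0.90 (adjusted p = 0.107). Among the 24 h arrays, Pdia4 averaged -5.36 on the 3 of low share and -1.94 on the other 6, while Aldh1l2 averaged -4.51 and -3.08. Sesn2 averaged -5.17 and -4.50 on the same arrays, and Hspa5 -0.09 and -1.01.

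**Figure D3:**
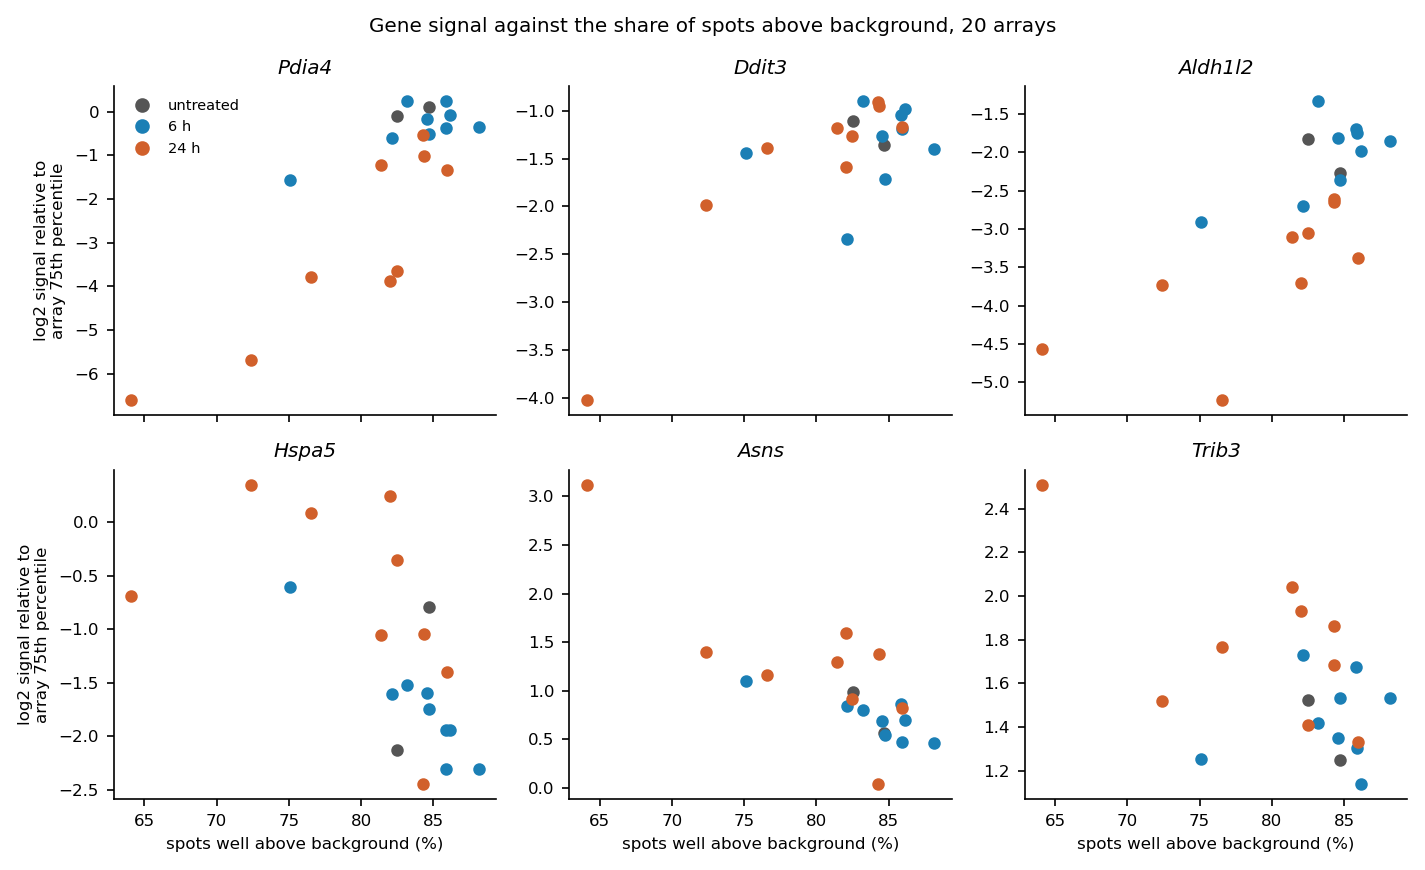
Log2 signal relative to the array's 75th percentile (vertical axis) of 6 genes against the percentage of spots well above background (horizontal axis) on 20 arrays, coloured by untreated, 6 h and 24 h. The lowest values of Pdia4 (-6.61) and Ddit3 (-4.02) and the highest of Asns (3.12) and Trib3 (2.51) were on the array with 64.1% of spots above background.

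The scaling of the arrays set some of the signs. The authors' deposited table is scaled to each array's median, which raised every 24 h against 6 h change by 0.40 compared with the 75th percentile and moved the median of all genes from -0.09 to 0.31. On that scale 7 of the 9 genes were called, 4 higher and 3 lower, in place of 1 higher and 3 lower, and 36.3% of all genes were called, 8643 higher and 2428 lower. Pdia4 (-2.33), Sesn2 (-0.84) and Aldh1l2 (-1.12) were called lower there too, and Hspa5 (1.43) higher. The 3 further calls were Asns (0.98), Trib3 (0.74) and the saturated Atf4. Under quantile normalization the same 4 genes as in the main fit were called, beside 21.7% of all genes, while Trib3 stood at 0.10.

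Scan day could be examined in part. As a random block it left 9.84% of all genes called in the mean of the concentrations. At 1 and 1/5 each time had its own scan day, so there a block cannot separate time from day. With scan day as a random block Aldh1l2 (adjusted p = 0.0153), Pdia4 (adjusted p = 0.0360) and Sesn2 (adjusted p = 0.0452) were called in the mean of the concentrations by limma, and Hspa5 was not (adjusted p = 0.0656). Within 1/25, where groups of both times shared a day, the changes with day as a fixed term were -1.66 for Aldh1l2, -5.21 for Pdia4, -2.10 for Sesn2 and 1.70 for Hspa5, none of them called. That comparison set 3 arrays of 6 h against 1 of 24 h on the shared day, and that array and 1 of the 3 were of low share.

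Between concentrations at one time none of the 9 genes was called. Over all genes 0.00656% were called between 1 and 1/5 at 6 h, 0% between 1/5 and 1/25 at 6 h and 0.0197% between 1 and 1/25 at 6 h. At 24 h the shares were 0%, 0.00328% and 0.00328% in the same order. No member had an unadjusted p under 0.05 at 6 h or between 1/5 and 1/25 at 24 h. There were 4, saturated Atf4 among them, between 1 and 1/5 at 24 h (21.5% of all genes) and 1 between 1 and 1/25 at 24 h (5.01% of all genes).

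At 24 h the 3 arrays of concentration 1 lay below the 3 of 1/5 for the amino acid gene Asns, as for 11.7% of all genes. The difference for Asns was -1.27 ± 0.41 (limma adjusted p = 0.114). Trib3 stood at -0.63 ± 0.26 (adjusted p = 0.192) and Aldh1l2 at 1.28 ± 0.51 (adjusted p = 0.175). Without the third array of 1/5 for 24 h these values were -0.64, -0.43 and 1.14. At 6 h the farthest was Sesn2 between 1 and 1/5, at 1.20 ± 0.58 (not called). There the 3 arrays of concentration 1 all lay above the 3 of 1/5, as for 12% of all genes. On the slide that held both groups, with 1 array of concentration 1 and 3 of 1/5, the Sesn2 change was 1.14.

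Over all 7 groups together, limma's F test called none of the 9 genes, against 0.695% of all genes. Aldh1l2 came nearest (adjusted p = 0.0843), followed by Pdia4 (adjusted p = 0.180), Sesn2 (adjusted p = 0.195) and Hspa5 (adjusted p = 0.219). At an unadjusted p under 0.05, 5 of 9 members and 21.5% of all genes passed. The order of group means for Aldh1l2, from high to low, was 1 for 6 h (-1.80 ± 0.06, SD, n = 3), untreated (-2.05 ± 0.32, n = 2), 1/25 for 6 h (-2.07 ± 0.79), 1/5 for 6 h (-2.26 ± 0.51), 1 for 24 h (-3.03 ± 0.36), 1/25 for 24 h (-3.35 ± 0.64) and 1/5 for 24 h (-4.30 ± 1.09). Every pair of neighbours in this order overlapped in its arrays.

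The 9 genes did not move as one set over the arrays. Pdia4, Sesn2 and Aldh1l2 had pairwise correlations of 0.77 to 0.84 over the 20 arrays and of 0.63 to 0.68 within groups. Hspa5 ran against all 3, at -0.77 with Pdia4, -0.74 with Sesn2 and -0.75 with Aldh1l2. Asns had a correlation of 0.74 with Trib3 and of -0.78 with Pdia4. The points share arrays, slides and scaling, and the same genes correlated with the 75th percentile of the array, at 0.80 for Pdia4, 0.85 for Ddit3, 0.69 for Aldh1l2, 0.43 for Sesn2, -0.51 for Hspa5, -0.72 for Trib3 and -0.92 for Asns. The genes most like Aldh1l2 over the 20 arrays were 2 transcripts that the files give without a gene name (Pearson r 0.94 and 0.93) and Col5a1, a fibrillar collagen gene (r = 0.93).

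The wider pathway was read through 7 role lists with 71 genes, of which 63 were tested. In the mean of 24 h against 6 h, 22 of the 63 (34.9%) were called, 4 higher and 18 lower. Of all genes 21.1% were called, 2348 higher and 4074 lower. The median change of the 63 was -0.40 against -0.09 for all genes. In the other 15 comparisons 0 of the 63 were called by limma, while at an unadjusted p under 0.05 the counts were 37 between 24 h and 6 h at 1/5 (33.0% of all genes), 32 at 1/5 for 24 h against untreated (30.4%), 25 between 1 and 1/5 at 24 h (21.5%) and at most 9 in each of the rest. The count moved with the arrays used, as did that of all genes. It was 10 without the 4 arrays of low share, 8 of them among the 22 (15.0% of all genes called), and 3 with the share as a covariate (3.31%). Leaving out the second array of concentration 1 for 24 h left 4 (7.61%), and leaving out the second of 1/5 for 24 h gave 42 (44.2%). With the authors' scaling 34 were called, 20 higher and 14 lower (36.3%).

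Among 8 sensors and kinases, 1 was called higher and 3 lower at 24 h. Ern1, which encodes the sensor IRE1, rose by 1.26 ± 0.41 (limma adjusted p = 0.0396). Eif2ak3, which encodes PERK, fell by 2.47 ± 0.68 (adjusted p = 0.0233), Eif2ak1, the heme-regulated eIF2 kinase, fell by 1.95 ± 0.60 (adjusted p = 0.0332) and Mbtps1, the protease that starts ATF6 cleavage, fell by 1.73 ± 0.52 (adjusted p = 0.0321). Atf6 itself stood at -0.45 ± 0.21 and was not called. The probes of Eif2ak3 and Mbtps1 were well above background on 16 and 17 of the 20 arrays. The size of their falls may be limited by the background.

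Of 6 genes of eIF2 and its phosphatase, 1 was called higher and 3 lower. Eif2b5, a subunit of the exchange factor eIF2B, rose by 0.57 ± 0.19 (limma adjusted p = 0.0423), while Eif2b1, another subunit, fell by 2.47 ± 0.45 (adjusted p = 0.00418). Eif2s1, which encodes the phosphorylated subunit of eIF2, fell by 1.76 ± 0.41 (limma adjusted p = 0.0129). The probes of Eif2b1 and Eif2s1 were well above background on 15 and 18 of the 20 arrays. The size of their falls may be limited by the background. Ppp1r15b, the constitutive partner of the eIF2 phosphatase, fell by 0.55 ± 0.18 (adjusted p = 0.0448), and the inducible partner Ppp1r15a stood at -1.24 ± 0.46 and was not called.

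Of 9 other ATF4-arm genes measured, 2 were called, both lower: Ddit4, an inhibitor of mTORC1, fell by 0.69 ± 0.19 (limma adjusted p = 0.0230) and Cth, the enzyme that makes cysteine from cystathionine, fell by 1.10 ± 0.36 (adjusted p = 0.0402). Of 8 genes of amino acid synthesis and transport, 3 were called, all lower. Slc3a2, the heavy chain of several amino acid exchangers, fell by 2.14 ± 0.64 (adjusted p = 0.0311), Slc1a4, a neutral amino acid transporter, fell by 1.57 ± 0.50 (adjusted p = 0.0370) and Phgdh, the first enzyme of serine synthesis, fell by 0.67 ± 0.23 (adjusted p = 0.0473). Among 10 aminoacyl-tRNA synthetases 2 were called lower, Yars1 by 1.98 ± 0.62 (adjusted p = 0.0364) and Wars1 by 0.92 ± 0.30 (adjusted p = 0.0415), which charge the tRNAs of tyrosine and tryptophan.

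The 15 other ER chaperones and folding enzymes included both directions, with 2 called higher and 3 lower. P4hb, a protein disulfide isomerase, rose by 1.22 ± 0.32 (limma adjusted p = 0.0200) and Hspa13, an Hsp70-family ATPase of microsomes, rose by 0.61 ± 0.21 (adjusted p = 0.0445). Pdia3, a disulfide isomerase that works on glycoproteins, fell by 2.01 ± 0.58 (adjusted p = 0.0274), Creld2, an ER stress-inducible secreted protein, fell by 1.98 ± 0.55 (adjusted p = 0.0233) and Canx, the membrane lectin calnexin, fell by 1.69 ± 0.56 (adjusted p = 0.0429). Hyou1, a large ER chaperone, was saturated on all 20 arrays.

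Of 7 genes of ER-associated degradation, 2 were called, both lower. Os9, a lectin that delivers misfolded glycoproteins for degradation, fell by 1.55 ± 0.24 (limma adjusted p = 0.00195), and it was also the gene of these lists that passed the F test over the 7 groups (adjusted p = 0.0298). Selenos, a selenoprotein of the degradation complex, fell by 1.12 ± 0.27 (adjusted p = 0.0148). Os9, Eif2b1 and Eif2s1 were the 3 genes that stayed called with the share of spots above background as a covariate, at -1.40, -2.02 and -0.998.

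**Figure D4:**
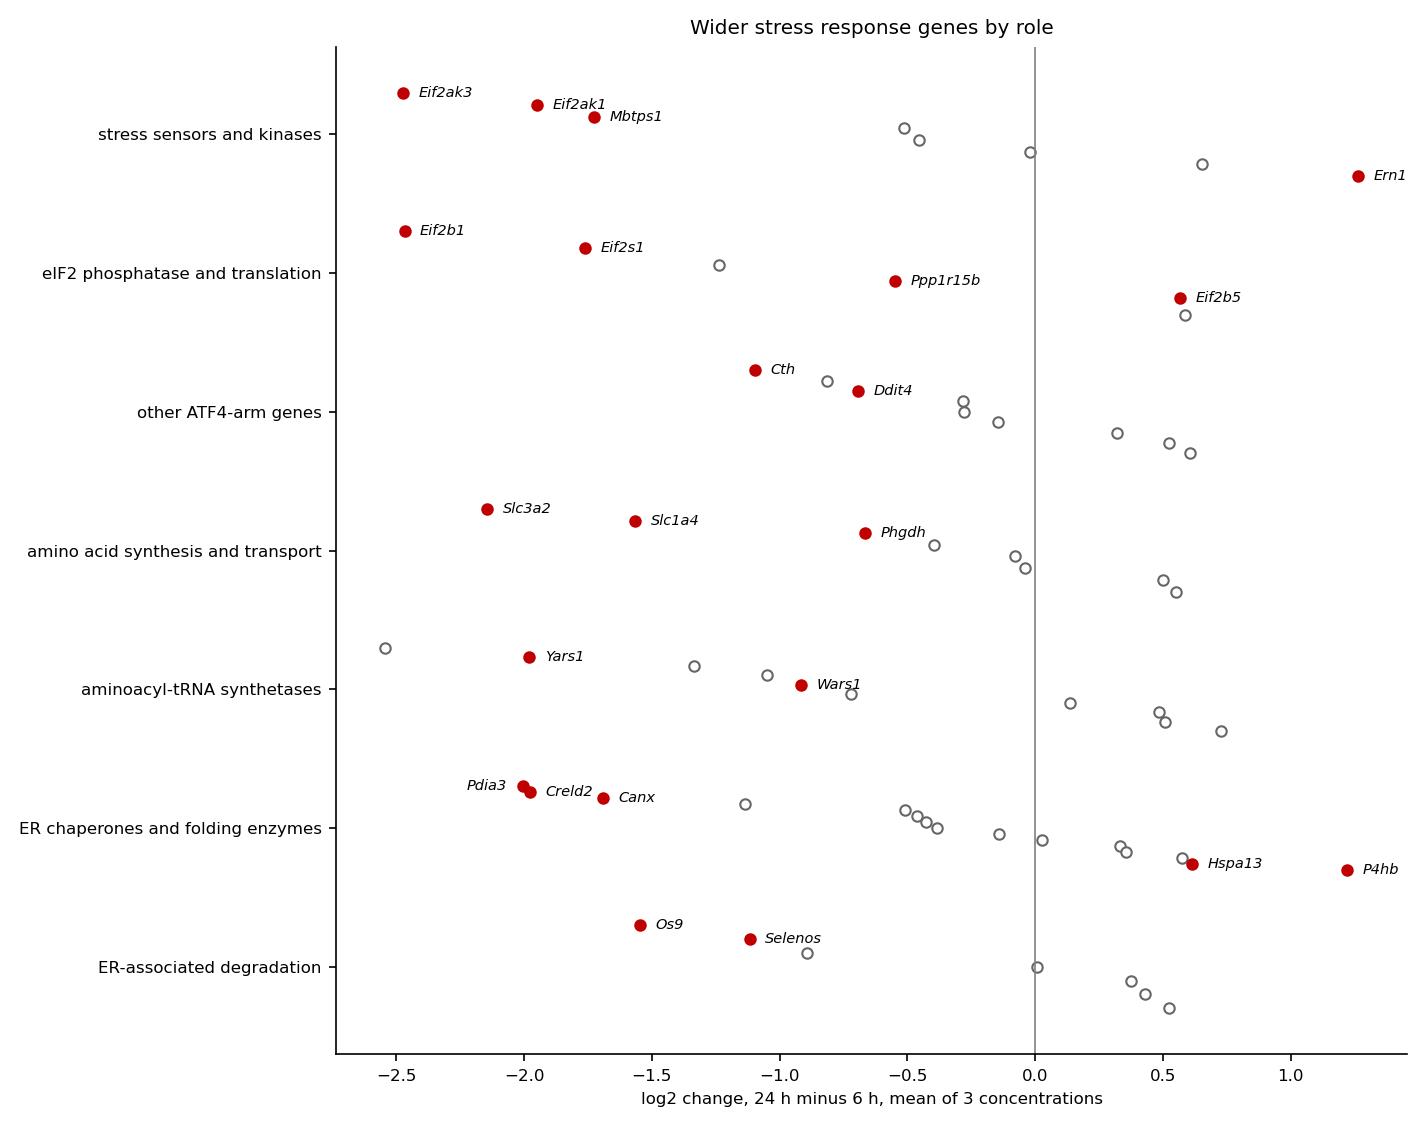
Log2 change between 24 h and 6 h, as the mean of 3 concentrations (horizontal axis), of 63 genes in 7 role lists (vertical axis). Filled, named points have an adjusted p under 0.05 and open points do not; 18 of the 22 named genes lie below 0 and 4 above it.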

How the data were processed

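Total RNA of 20 samples was labelled with Cy3 and hybridised to 1-colour Agilent rat arrays. Per the file headers the deposited intensities are processed signals of Agilent Feature Extraction 9.5.3.1, background-subtracted by that software, with probe positions on build rn3. The deposited series table holds linear ratios: 99.8% of its values lay within 0.05 log2 of the processed signal divided by the array median and by the mean of the untreated arrays. Further steps by the authors are not given in the sources used here.

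Control and outlier spots were left out, and log2 processed signals were set against each array's 75th percentile. Of 41012 probes, 35067 were kept because they were well above background on every array of a group, and the brightest stood for each of 30495 genes, named through RefSeq accessions, symbols or synonyms and otherwise as in the files. limma 3.58.1 in R 4.3.3 fitted 7 group means over all arrays, tested 16 contrasts and an F statistic with Benjamini-Hochberg adjustment over all genes (two-sided, threshold 0.05), and was tested on simulated data. Precision is limited by how many arrays each group has.

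The members and lists were chosen with earlier results of these data known. Named are all members, every gene of the role lists that passed the threshold, and the genes most like the member with the smallest F-test p. Alternatives were quantile normalization, normexp background correction (offset 50), no filter, every probe as a feature, the deposited table, array weights, the share of spots above background as a covariate, slide, scan day and replicate number as blocks, and arrays left out. Probe sequences are printed for 3 of the 9 measured members.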

Additional observations from a re-analysis of the deposited data

How the results depend on the processing

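Over the alternatives, 509 of 538 counts of called members stayed within 1.5 times the reported count and 29 moved. The reported count was 0 in every comparison but the mean of 24 h against 6 h. In those a count that stayed was again 0. None of the 4 changes called in the mean turned its sign. Some changes that were not called did, that of Ddit3 among them. Between 24 h and 6 h in the mean of the concentrations, Aldh1l2 was called in all 31 alternatives, Pdia4 in all but 1, Sesn2 in all but 3, and Hspa5 was not called in 15. In place of 4 members there, 7 were called with the deposited table (36.3% of all genes) and 8 with array weights (71.1%). With slide as a random block 7 were called (48.7%), and 1 with the share of spots above background as a covariate (3.31%). The number of genes called ranged from 1009 with the covariate to 21687 with array weights, beside 6422.

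With array weights (fitted gene by gene because the REML fit did not converge, and from 0.0326 to 23.0) the members called against untreated were 3, 7 and 8 at 1, 1/5 and 1/25 for 24 h, beside 21.8%, 60.9% and 54.9% of all genes. Between 24 h and 6 h they were 4, 7 and 6 at 1, 1/5 and 1/25 (53.5%, 65.0% and 25.2% of all genes), and by the F test 8 (84.0%). Between concentrations they were 1 for 1 against 1/5 at 6 h (7.92%), and at 24 h 6 for 1 against 1/5 (66.5%), 1 for 1/5 against 1/25 (22.4%) and 6 for 1 against 1/25 (65.1%). With slide as a random block (correlation -0.168) they were 6 at 1/5 for 24 h against untreated (34.5% of all genes), 1 and 5 between times at 1 and 1/5 (3.24% and 46.0%), 6 between 1 and 1/5 at 24 h (32%), and 7 by the F test (49.2%). Without the 4 arrays of low share 2 were called between times at concentration 1, Sesn2 (-1.86) and Aldh1l2 (-1.22), among 2489 genes. The cause of these differences was not tested.

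Leaving out each array in turn gave 0 to 4 members at 1/5 for 24 h against untreated, 0 to 4 between times at 1/5, 2 to 6 between times in the mean, 0 to 5 between 1 and 1/5 at 24 h, and 0 to 2 by the F test. The highest of each came without the second array of 1/5 for 24 h, where 44.2% of all genes were called in the mean. The F test also called 2 without the second of 1/25 for 24 h and 1 without the second of 1/25 for 6 h. The lowest mean count, 2, came without the second of 1 for 24 h (7.61% of all genes called) or the first of 1/25 for 6 h (8.43%). For the other comparisons here the share of all genes is not given, so their counts cannot be read as particular to the members. The arrays whose omission ended the call of Hspa5 were the second and the third of 1 at both times, the first and the third of 1/25 at both times, the first of 1/5 for 24 h, and the first and the third of 1/5 for 6 h.

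With a replicate block 4 members were called in the mean comparison of times (15.4% of all genes) and 0 in every other comparison. The replicate numbers do not pair the samples: over 57 pairs of same-numbered arrays the correlation of deviations had a median of -0.04 and ran from -0.76 to 0.64. The scan-day, shared-slide and low-share alternatives were chosen after seeing the data. Pdia4, Sesn2 and Aldh1l2 were not well above background on 2, 2 and 1 of the 24 h arrays, so the depth of their lowest values is limited by the background. Eif2b1, Eif2ak3, Mbtps1, Eif2s1, Cth and Canx, called in the role lists, were well above background on 15 to 18 of the 20 arrays.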
